A study of Mus musculus with 36 samples.

Results

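The heat shock and cytosolic chaperone genes described here are 38 mouse genes taken by name: 3 small heat shock proteins, 8 members of the HSP70 and HSP110 families, 7 J-domain proteins, 9 genes of HSP90 and its co-chaperones, 7 chaperonin genes, and 4 genes of heat shock factors and nucleotide exchange factors. All 38 were found among the 39017 genes of the deposited count table, and all 38 were among the 22556 genes that passed the filter on low counts. Hspa9, Hspd1 and Hspe1 encode mitochondrial chaperones, although the group is named for the cytosol. The RNA came from cochleae (the part of the inner ear that hears) of 12-week-old CBA/Sca mice. One set of mice had lost the adrenal glands, the main source of glucocorticoids, by adrenalectomy (ADX), and the other set had a sham operation. Cochleae were collected every 4 h at CT04, CT08, CT12, CT16, CT20 and CT24 (CT is circadian time), and each of the 12 groups held 3 libraries, 36 in all. All groups shared strain and age, and the labels name no other allele or agent.

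Chaperones bind unfolded or newly made proteins and keep them from aggregating. HSP70 proteins work in cycles of ATP hydrolysis that J-domain proteins start and nucleotide exchange factors reset, and HSP90 takes over many of their clients, among them steroid receptors such as the glucocorticoid receptor. When unfolded proteins accumulate, the transcription factor HSF1 forms trimers, binds heat shock elements and raises the inducible members of these families. In the inner ear, HSF1 and inducible HSP70 are known for protecting hair cells from noise and ototoxic drugs, and in the liver HSF1 activity and heat shock transcripts are known to follow the daily cycle of body temperature.

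A heat shock element is built of GAA units in alternating orientation. The promoter table used here, from RefSeq on the build GRCm38.p6, gives 250 bases before and 50 bases after each start site, and 31 of the 38 genes were matched to it, with 43 windows between them (not Hspa8, Hsp90aa1, Hsf1, Cryab, Hspa9, Hsp90ab1 and St13). A 3-unit element, GAANNTTCNNGAA or TTCNNGAANNTTC, which between them cover both strands, stood in at least 1 window of 5 of the 31 genes. It stood in 0.603% of all 32851 windows and, counted per gene as for the 31, in 0.526% of the 13883 tested genes with a window. The stretches that hold it are shown because they belong to genes whose levels are described below. They lie at chr1:55088048-55088087 for Hspe1 (plus strand) and Hspd1 (minus strand), which are transcribed away from each other and share it, at chr9:18292259-18292286 for Chordc1 (plus strand), at chr5:29735840-29735873 for Dnajb6 (plus strand) and at chr5:149636281-149636306 for Hsph1 (minus strand). Capitals mark the units of the element.
Hspe1: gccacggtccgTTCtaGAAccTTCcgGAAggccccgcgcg
Hspd1: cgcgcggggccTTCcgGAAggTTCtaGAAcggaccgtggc
Chordc1: accgGAAcgTTCggGAAaaTTCctGAAg
Dnajb6: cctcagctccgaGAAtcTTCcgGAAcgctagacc
Hsph1: tgcagaTTCtgGAAagTTCtcctcag

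The 2-unit form, GAANNTTC or TTCNNGAA, is contained in the 3-unit form and reads the same on both strands. It stood in the windows of 16 of the 31 genes (51.6%), beside 14.2% of the tested genes with a window (15% of all windows). Of the 31, 23 are called below for a rhythm with both statuses combined. Of these 23, 12 held the 2-unit form and 4 the 3-unit form. Cct2, Cdc37, Dnajb6 and Hspb8, not called, also held the 2-unit form, and Dnajb6 the 3-unit form. The next stretches, from -130 to -61 relative to the start site, have the 2-unit form in capitals. They are shown because Hspa1a, Hspa1b and Hspb1, with Hsph1, had the largest fitted daily changes of the 38. The stretches lie at chr17:34972217-34972286 for Hspa1a, at chr17:34959299-34959368 for Hspa1b (both on the minus strand) and at chr5:135887789-135887858 for Hspb1 (plus strand).
Hspa1a: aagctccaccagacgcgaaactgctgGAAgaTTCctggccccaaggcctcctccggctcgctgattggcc
Hspa1b: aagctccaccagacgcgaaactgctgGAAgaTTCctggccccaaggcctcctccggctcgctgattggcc
Hspb1: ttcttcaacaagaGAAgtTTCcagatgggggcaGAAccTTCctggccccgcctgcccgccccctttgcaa

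The stretches of Hspa1a and Hspa1b are letter for letter the same, and their 250 bases before the start site differed at 3 positions. The E-box CACGTG stood in the windows of 3 of the 31 genes (Hsf2, Hspd1 and Hsph1), or 9.68%, beside 10.5% of the tested genes with a window (7.15% of all windows). The D-box TTATGTAA, with the forms TTACATAA and TTACGTAA, stood in 0 of the 31 genes, beside 0.922% of those tested (1.06% of all windows). The CCAAT box, CCAAT or ATTGG, stood in 14 of the 31 (45.2%), beside 41.6% of those tested (37.4% of all windows). These matches are of letters only, and binding was not measured.

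Deposited counts summed to between 18999408 and 28995197 per library. The tissue label was checked with 6 hair cell markers, whose summed level had a median of 195 CPM (counts scaled to a fixed library size with TMM factors) in sham and 199 CPM in ADX, and with 6 supporting cell, 5 stria vascularis and 5 spiral ganglion markers. Of these markers, 0 were at 0 in all libraries. The same held for markers of skeletal muscle and pituitary, so this count does not set the cochlea apart from other tissue. Because the samples were of bulk tissue, fewer cells of a type and less RNA per cell cannot be told apart. Transcripts of blood cells and bone were also high. The median sums in sham and ADX were 21850 and 18280 CPM for 6 erythroid markers and 6700 and 6318 CPM for 6 neutrophil markers. They were 1445 and 1198 CPM for 4 bone markers, whose mean centred log2 CPM was highest in sham CT20 replicates 2 (1.17) and 3 (0.96). The part of these cells in the rhythms below was not tested. Transcripts of muscle and pituitary stood out in some libraries. The skeletal muscle score, the mean centred log2 CPM of 12 markers, reached 3.95 in replicate 3 of ADX CT20, with 2.52 for replicate 1 of ADX CT12 and 1.96 for replicate 2 of ADX CT16. The muscle markers summed to between 18.2 and 55.0 CPM in the sham libraries and to between 18.1 and 767 CPM in those of ADX. The pituitary hormone transcript Gh exceeded 50 CPM in 5 libraries, with 1179 CPM in sham CT16 replicate 3 and 496 CPM in sham CT08 replicate 3 as the highest.

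Most of the 38 genes followed a daily cycle in the cochlea, with high levels at CT16 and CT20 and lower, rather even levels at the other times. In sham, 25 of the 38 (65.8%) passed the test of a 24-h rhythm, against 3628 of the 22556 tested genes (16%). In ADX, 20 of the 38 (52.6%) passed, against 9.4% of all tested genes, and these 20 were also called in sham (5.62% of all tested genes were called in both statuses). With both statuses combined, 30 of the 38 (78.9%) passed, against 32.5% of all tested genes. The test was edgeR's quasi-likelihood test of a 24-h cosine with free phase, with Benjamini-Hochberg adjustment over all 22556 genes and a threshold of 0.05. Sizes below are fitted peak-to-trough values on the log2 scale, with their SE. The median size over the 38 was 0.36 in sham and 0.28 in ADX, beside 0.22 and 0.18 over all tested genes. The fitted peak lay between 15 and 21 h in 22 of the 25 genes called in sham and in 19 of the 20 called in ADX. Over all tested genes it lay there in 1155 of the 3628 called in sham and 969 of the 2120 called in ADX. Among the 38, the exceptions in sham were Hspa9 (peak at 10.6 h), Hspa2 (11.4 h) and Dnaja2 (13.7 h), and the exception in ADX was Hspa2 (13.2 h).

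**Figure D1:**
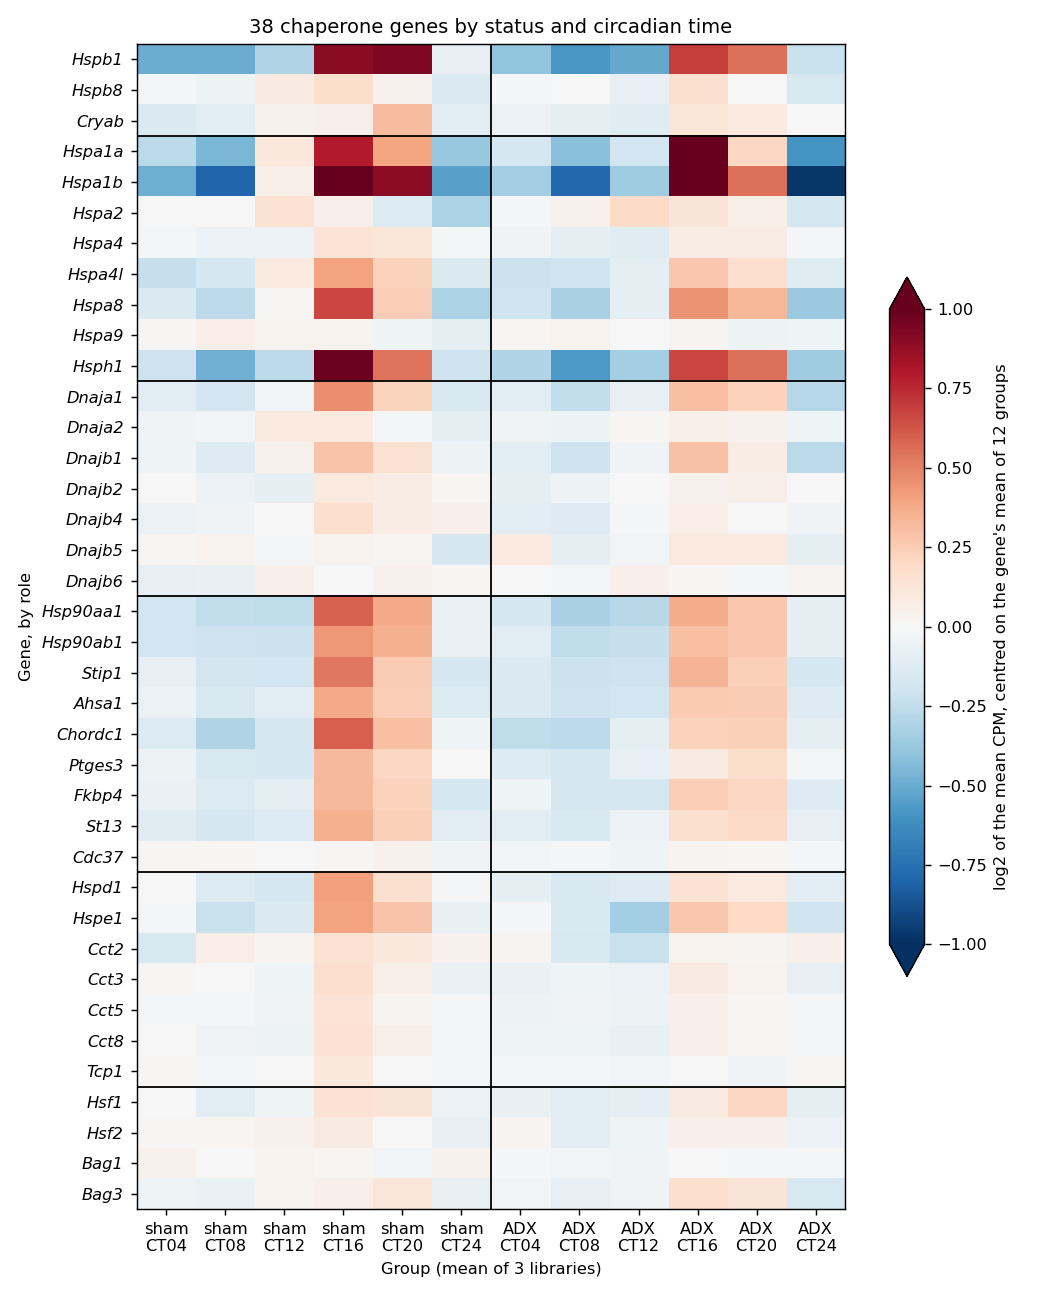
Colour gives the log2 of the mean CPM of 3 libraries, centred on each gene's mean over the 12 groups (columns: status and circadian time), for the 38 genes in rows, ordered by role with lines between roles. Most rows are red at CT16 and CT20 in both statuses, and colours are cut at -1 and 1.

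Among the small heat shock proteins, which hold unfolded proteins in a state that other chaperones can refold, 2 of 3 genes were called in sham and 1 in ADX. Hspb1, which encodes HSP27 (chr5:135887919-135889563, GRCm38), had 20.4, 25.6 and 24.5 CPM in the sham libraries at CT04, 26.5, 20.8 and 23.2 CPM at CT08 and 27.5, 24.0 and 29.4 CPM at CT12. It then had 53.9, 65.7 and 66.5 CPM at CT16, 50.1, 72.2 and 68.2 CPM at CT20 and 30.4, 28.2 and 35.7 CPM at CT24. All 6 sham libraries of CT16 and CT20 thus stood above the 12 of the other times. In ADX it had 25.1, 25.4 and 25.4 CPM at CT04, 22.6, 21.6 and 22.5 CPM at CT08, 25.5, 22.4 and 21.8 CPM at CT12, 60.2, 47.3 and 53.0 CPM at CT16, 60.7, 47.3 and 37.8 CPM at CT20 and 25.6, 29.6 and 30.4 CPM at CT24. The ADX libraries were split in the same way, without overlap between CT16 and CT20 and the other times. The fitted peak-to-trough value was 1.67 ± 0.17 in sham (peak at 18.3 h, edgeR adjusted p = 5.34e-08) and 1.31 ± 0.17 in ADX (peak at 18.5 h, edgeR adjusted p = 1.83e-05).

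Cryab, which encodes alpha-B-crystallin, changed less. Its sham libraries had 240.1, 220.2 and 215 CPM at CT16, 238, 311 and 261 CPM at CT20 and 182 to 243 CPM at the other times. Its ADX libraries had 233, 232 and 242 CPM at CT16, 254, 227 and 214 CPM at CT20 and 183 to 226 CPM at the other times. The highest of the 36 values was that of sham CT20 replicate 2, and the groups overlapped in both statuses. The peak-to-trough value was 0.37 ± 0.08 in sham (edgeR adjusted p = 0.00480) and 0.23 ± 0.08 in ADX, where it did not pass (edgeR adjusted p = 0.134). Hspb8, a partner of BAG3 in the disposal of misfolded proteins, was not called in either status (40.6 to 61.4 CPM in sham and 40.3 to 63.3 CPM in ADX).

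All 8 genes of the HSP70 and HSP110 families were called in sham, and all but Hspa9 in ADX. In ADX, Hspa2 did not pass without the 3 libraries of highest muscle score (edgeR adjusted p = 0.0630) or without the 5 with Gh over 50 CPM (0.0859), and in sham Hspa9 did not pass when only sham libraries were fitted (0.0553). The inducible gene Hspa1b (chr17:34956436-34959238) had the largest size of the 38 genes. Its sham libraries had 3.37, 4.44 and 5.30 CPM at CT04, 3.73, 3.04 and 3.84 CPM at CT08, 5.69, 5.57 and 7.91 CPM at CT12, 16.11, 15.57 and 17.75 CPM at CT16, 9.05, 8.44 and 16.7 CPM at CT20 and 3.82, 4.05 and 4.75 CPM at CT24. Its ADX libraries had 3.54, 5.42 and 5.57 CPM at CT04, 3.67, 3.88 and 3.15 CPM at CT08, 6.00, 4.84 and 3.54 CPM at CT12, 14.4, 12.6 and 19.5 CPM at CT16, 10.2, 10.7 and 6.04 CPM at CT20 and 2.96, 2.90 and 3.50 CPM at CT24. In both statuses the 3 libraries of CT16 held 3 of the 4 highest values, and the CT20 libraries spread widely. The peak-to-trough value was 2.16 ± 0.31 in sham (edgeR adjusted p = 3.30e-05) and 1.87 ± 0.30 in ADX (edgeR adjusted p = 0.000441). Its near-identical neighbour Hspa1a (chr17:34969190-34972156) had 9.01, 9.43 and 10.3 CPM at CT16 in sham, 7.07, 5.41 and 9.39 CPM at CT20 and 3.09 to 6.67 CPM at the other times. Its ADX libraries had 10.7, 9.42 and 12.9 CPM at CT16, 7.13, 7.54 and 4.43 CPM at CT20 and 2.89 to 5.96 CPM at the other times. Its CT16 libraries stood above those of CT04, CT08, CT12 and CT24 in both statuses, and its CT20 libraries overlapped them. Its peak-to-trough value was 1.18 ± 0.23 in sham and 1.17 ± 0.23 in ADX. Of the 100-base stretches of the Hspa1b transcripts, 49.9% were also found in Hspa1a, so reads of the pair could have been split or left out and each single value is uncertain.

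Hsph1, which encodes the nucleotide exchange factor HSP105 (chr5:149614287-149636376), had 107, 136 and 109 CPM in the sham libraries of CT04, 98.9, 89.1 and 102 CPM at CT08, 112, 109 and 118 CPM at CT12, 251, 279 and 270.2 CPM at CT16, 181, 195 and 215 CPM at CT20 and 108, 118 and 126 CPM at CT24. The ADX libraries had 105, 106 and 118 CPM at CT04, 93.4, 81.9 and 97.6 CPM at CT08, 113, 109 and 97.7 CPM at CT12, 234, 175 and 236 CPM at CT16, 211, 223 and 159 CPM at CT20 and 98.9, 106 and 112 CPM at CT24. In both statuses CT16 and CT20 did not overlap the other times. Of the 3 libraries of highest muscle score, ADX CT16 replicate 2 and ADX CT20 replicate 3 were the lowest of their groups, and ADX CT12 replicate 1 was the highest of its group. The peak-to-trough value was 1.29 ± 0.18 in sham and 1.21 ± 0.18 in ADX (edgeR adjusted p = 1.56e-05 and 0.000138). Hspa8, the constitutive cytosolic HSP70, had sizes of 0.83 ± 0.12 in sham and 0.77 ± 0.12 in ADX. Hspa4l, an exchange factor of the HSP110 family, had 0.65 ± 0.08 and 0.50 ± 0.07, and its relative Hspa4 had 0.20 ± 0.04 and 0.19 ± 0.04. Hspa2, best known from the testis, had 0.37 ± 0.07 and 0.29 ± 0.07 with the earlier peaks given above. Hspa9, the mitochondrial HSP70, had 0.14 ± 0.03 in sham and 0.08 ± 0.03 in ADX, where it did not pass (edgeR adjusted p = 0.234).

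**Figure D2:**
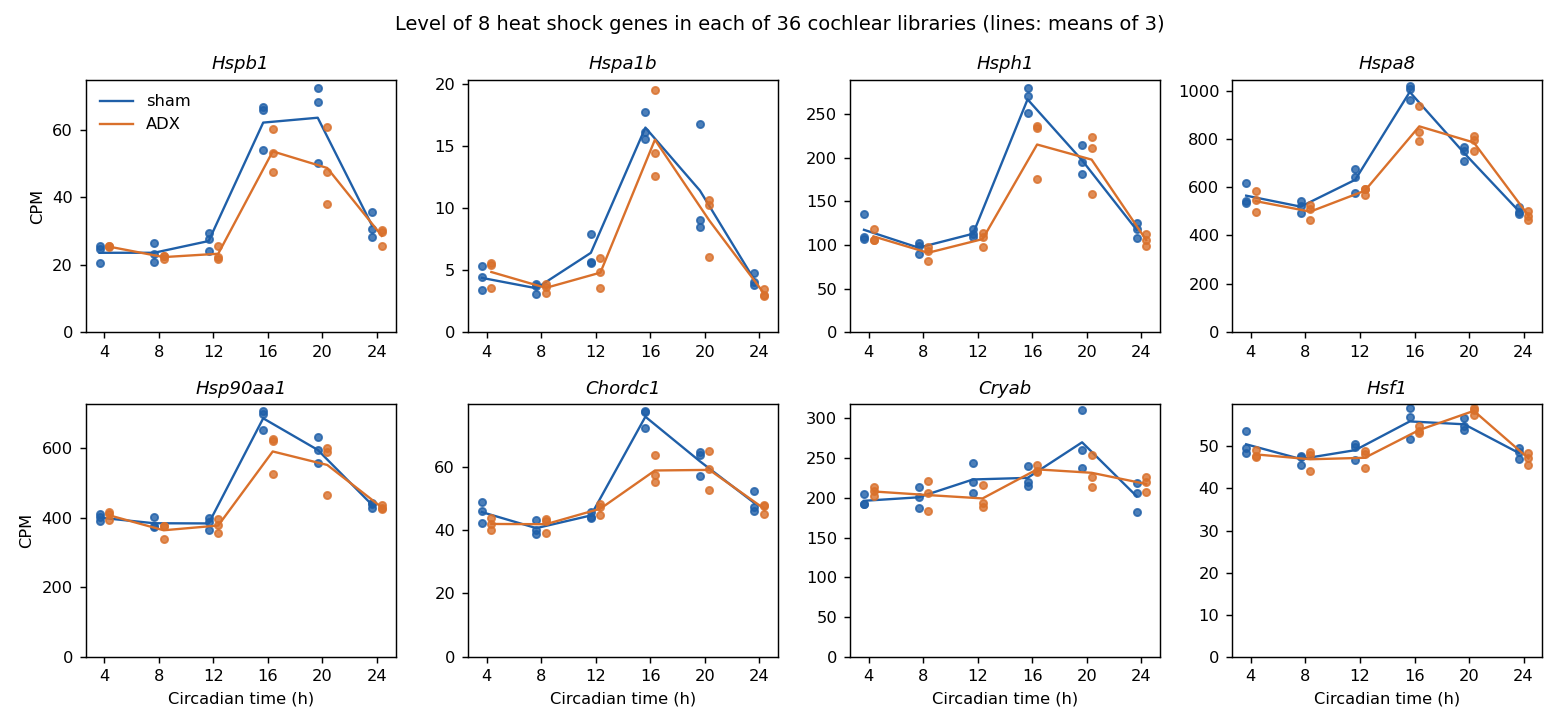
Each point is the level of 1 library in CPM (vertical axes from 0) at its circadian time in h, in blue for sham and orange for ADX, and lines join the means of 3 libraries. Hspb1, Hspa1b, Hsph1, Hspa8, Hsp90aa1 and Chordc1 stand high at CT16 and CT20 in both statuses, while Cryab and Hsf1 vary less.

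J-domain proteins bring clients to HSP70 and start its ATP hydrolysis, and 4 of the 7 were called in sham and 3 in ADX. Dnaja1, a cytosolic partner of HSP70, had 109.6, 110.4 and 103 CPM at CT16 in sham, 84.5, 91.8 and 96.9 CPM at CT20 and 64.9 to 77.8 CPM at the other times. In ADX it had 91.8, 87.2 and 109 CPM at CT16, 94.4, 98.5 and 81.6 CPM at CT20 and 62.0 to 77.9 CPM at the other times. The 6 libraries of CT16 and CT20 stood above the 12 others in each status, with sizes of 0.60 ± 0.10 in sham and 0.52 ± 0.10 in ADX (edgeR adjusted p = 0.000168 and 0.00191). Dnajb1, which encodes the stress-inducible HSP40, had 88.2, 87.8 and 86.9 CPM at CT16 in sham, 75.1, 72.7 and 91.5 CPM at CT20 and 59.6 to 83.3 CPM at the other times. Its ADX libraries had 87.8, 72.8 and 104 CPM at CT16, 73.8, 78.2 and 74.7 CPM at CT20 and 58.2 to 73.7 CPM at the other times. Its CT20 libraries in sham and its CT16 replicate 2 in ADX overlapped the other times, with sizes of 0.36 ± 0.09 in sham and 0.45 ± 0.09 in ADX (edgeR adjusted p = 0.0147 and 0.00386). In sham, Dnajb1 did not pass without the 5 libraries with Gh over 50 CPM (edgeR adjusted p = 0.0601).

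Among the other J-domain genes, Dnajb4 was called in both statuses with small sizes (0.20 ± 0.05 and 0.18 ± 0.05). Its call in ADX held in 26 of the 36 fits with 1 library omitted. Dnajb4 did not pass in ADX without the filter (edgeR adjusted p = 0.0849) or when the 6 times were compared without a curve (0.132). It also did not pass without the 3 libraries of highest muscle score (0.101) or without the 5 with Gh over 50 CPM. Dnaja2 was called in sham (0.18 ± 0.03) and missed the threshold in ADX (0.11 ± 0.03, edgeR adjusted p = 0.0537). Dnajb2 passed with both statuses combined (0.14 ± 0.04, edgeR adjusted p = 0.0122), though not without the 5 libraries with Gh over 50 CPM. Dnajb5 and Dnajb6 passed in no test of rhythm.

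HSP90 finishes the folding of kinases and steroid receptors, and 8 of the 9 genes of this role were called in each status. Hsp90aa1, the inducible cytosolic form, had 652, 708 and 699 CPM at CT16 in sham, 557, 597 and 634 CPM at CT20 and 364 to 443 CPM at the other times. In ADX it had 626, 525 and 622 CPM at CT16, 589, 602 and 466 CPM at CT20 and 339 to 436 CPM at the other times. CT16 and CT20 did not overlap the other times in either status, and the sizes were 0.82 ± 0.11 in sham and 0.67 ± 0.11 in ADX (edgeR adjusted p = 6.06e-06 and 0.000376). The constitutive form Hsp90ab1 had sizes of 0.69 ± 0.09 and 0.55 ± 0.09.

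Chordc1, an HSP90-binding co-chaperone (chr9:18292125-18317442), had 42.3, 48.8 and 46.1 CPM at CT04 in sham, 39.9, 38.9 and 43.2 CPM at CT08, 44.1, 44.0 and 45.9 CPM at CT12, 77.8, 77.3 and 72.4 CPM at CT16, 57.0, 63.6 and 64.7 CPM at CT20 and 46.0, 52.5 and 47.2 CPM at CT24. The ADX values of Chordc1 were 42.1, 40.1 and 43.7 CPM at CT04, 43.0, 39.2 and 43.5 CPM at CT08, 48.2, 47.2 and 44.9 CPM at CT12, 57.5, 55.3 and 63.8 CPM at CT16, 59.5, 65.1 and 52.5 CPM at CT20 and 45.2, 47.5 and 47.8 CPM at CT24. Its sham libraries stood highest at CT16, above those of CT20, while in ADX the libraries of the 2 times overlapped. The sizes were 0.78 ± 0.09 in sham and 0.57 ± 0.09 in ADX (edgeR adjusted p = 7.02e-07 and 0.000365).

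The other called co-chaperones of HSP90 had fitted peaks between 17.5 and 18.9 h in both statuses. Stip1, which bridges HSP70 and HSP90, had sizes of 0.61 ± 0.10 in sham and 0.54 ± 0.11 in ADX. St13, the HSP70-interacting protein HIP, had 0.51 ± 0.06 and 0.36 ± 0.06, and Ahsa1, the activator of the HSP90 ATPase, had 0.49 ± 0.08 and 0.51 ± 0.08. Ptges3, which encodes p23, had 0.45 ± 0.07 and 0.35 ± 0.07. Fkbp4, an immunophilin of steroid receptor complexes, had 0.44 ± 0.08 and 0.39 ± 0.09. Cdc37, which brings kinases to HSP90, was the gene of this role that was not called, with 0.02 ± 0.03 in sham and 0.05 ± 0.03 in ADX.

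The chaperonins enclose a client in a chamber. The mitochondrial pair Hspd1 (HSP60) and Hspe1 (HSP10) were the 2 of the 7 genes called in sham, and 0 of the 7 were called in ADX. Hspd1 had 209.9, 222 and 216 CPM at CT16 in sham, 179, 178 and 187 CPM at CT20 and 139 to 169 CPM at the other times. In ADX it had 188, 158 and 193 CPM at CT16, 178, 181 and 162 CPM at CT20 and 137 to 156 CPM at the other times. Hspe1 had 36.5, 42.3 and 47.2 CPM at CT16 in sham, 36.2, 38.2 and 41.7 CPM at CT20 and 24.9 to 31.7 CPM at the other times.

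In ADX, Hspe1 had 39.6, 34.7 and 40.4 CPM at CT16, 38.8, 37.8 and 32.3 CPM at CT20 and 22.6 to 32.0 CPM at the other times. For both genes, CT16 and CT20 stood above all other times in each status, by a narrow margin in ADX. The size was 0.42 ± 0.08 in sham and 0.28 ± 0.08 in ADX for Hspd1 (edgeR adjusted p = 0.00177 and 0.0539). It was 0.55 ± 0.12 and 0.38 ± 0.12 for Hspe1 (edgeR adjusted p = 0.00383 and 0.0690). Both passed in ADX when the 6 times were compared without assuming a curve (edgeR adjusted p = 0.00202 for Hspd1 and 2.17e-05 for Hspe1) and with DESeq2, so their missing call depends on the test used.

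Of the 5 subunits of the cytosolic chaperonin, which folds actin and tubulin, Cct3, Cct5 and Cct8 passed with both statuses combined, with sizes of 0.13 ± 0.03, 0.10 ± 0.03 and 0.11 ± 0.03. Cct5 lost this call in 26 of the 36 fits with 1 library omitted, and Cct2 and Tcp1 passed in no test of rhythm. Cct2 had a further pattern, seen only after its values were known. It had 90.0 CPM in ADX CT12 replicate 1, 94.6 CPM in sham CT04 replicate 2 and 98.1 CPM in ADX CT08 replicate 3, and between 155 and 189 CPM (median 171 CPM) in the other 33 libraries. Cct3, Cct5, Cct8 and Tcp1 lay within the range of the other libraries in these 3. Among 13863 genes with a mean above 5 CPM, 2 had these 3 libraries below all others, with a log2 gap of 0.66 for Cct2 and 0.0046 for Taco1, and 0 had them above all others. The 3 libraries come from different groups and times.

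**Figure D3:**
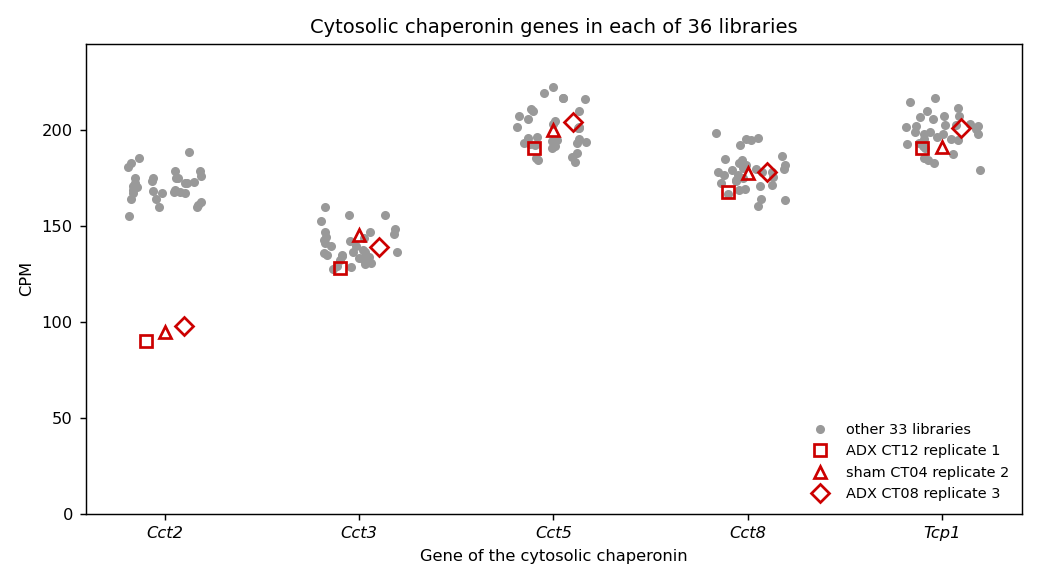
Points are the levels in CPM (axis from 0) of 5 cytosolic chaperonin genes, grey for 33 libraries and red open marks for the 3 named in the key. For Cct2 the red marks lie between 90.0 and 98.1 CPM, below all grey points, and for the other 4 genes they lie among them.

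The heat shock factors themselves changed little. Hsf1 had 51.8, 56.9 and 59.1 CPM at CT16 in sham, 54.0, 54.9 and 56.8 CPM at CT20 and 45.6 to 53.5 CPM at the other times. In ADX it had 53.5, 53.2 and 55.0 CPM at CT16, 59.2, 58.5 and 57.5 CPM at CT20 and 44.2 to 49.1 CPM at the other times. The ADX libraries of CT16 and CT20 stood above all others, and those of sham overlapped them. Its size was 0.22 ± 0.05 in sham (edgeR adjusted p = 0.0160) and 0.28 ± 0.05 in ADX (edgeR adjusted p = 0.00282), and in sham it did not pass without the 5 libraries with Gh over 50 CPM (edgeR adjusted p = 0.0947). Hsf2, which forms mixed trimers with HSF1, ranged over 17.1 to 23.0 CPM in sham and 17.1 to 22.8 CPM in ADX and was not called. Bag3, an exchange factor that HSF1 induces, had 75.01, 70.22 and 72.28 CPM at CT16 in sham, 72.3, 84.7 and 71.4 CPM at CT20 and 61.2 to 75.1 CPM at the other times. In ADX Bag3 had 70.1, 83.2 and 82.8 CPM at CT16, 86.0, 76.2 and 67.8 CPM at CT20 and 58.9 to 71.7 CPM at the other times. Its groups overlapped, and it passed with both statuses combined (0.21 ± 0.05, edgeR adjusted p = 0.0107). Bag1, an exchange factor of HSC70, was not called and had the smallest shared size of the 38 (0.01 ± 0.02). The genes that passed in no test of rhythm were thus Hspb8, Dnajb5, Dnajb6, Cdc37, Cct2, Tcp1, Hsf2 and Bag1.

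**Figure D4:**
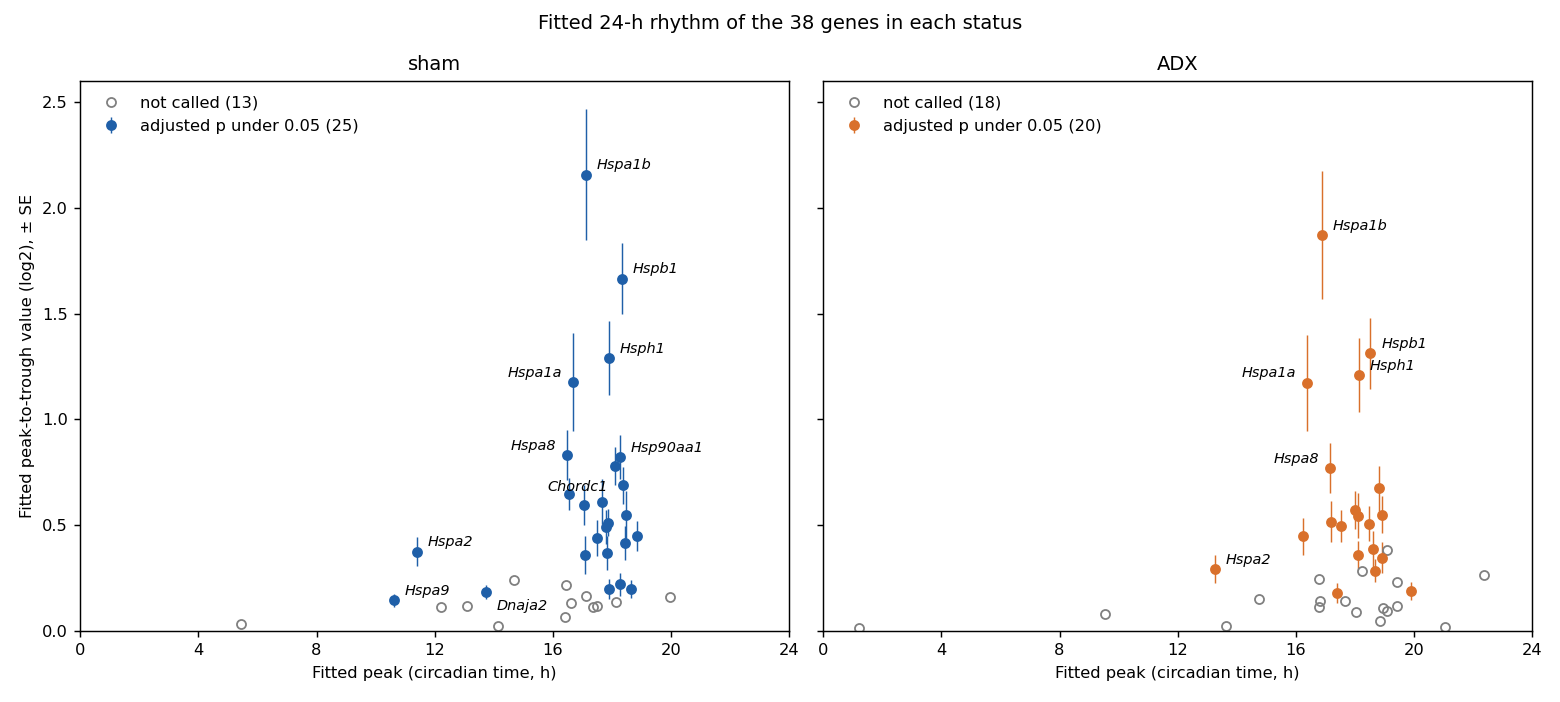
Fitted peak time (h) against fitted peak-to-trough value (log2, bars are SE, drawn for called genes) of the 38 genes in sham and ADX, filled where the adjusted p was under 0.05 and open grey where not. The called genes crowd between 15 and 21 h, and Hspa1b, Hspb1, Hsph1 and Hspa1a exceed 1 in both statuses.

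The changes from one time to the next are given as a description, since CT16 and CT20 were picked after the values were seen and a step was not tested against a smooth wave. Of the 30 genes with a shared rhythm, 29 were higher at CT16 than at CT12 in sham and 29 in ADX, and the median log2 ratio of the 2 group means was 0.46 in sham and 0.30 in ADX. From CT20 to CT24 the median log2 ratio was -0.35 in sham and -0.30 in ADX. Across the other 4 times the median range was 0.17 in sham and 0.13 in ADX. The highest group mean fell at CT16 in 25 of the 30 in sham and 23 in ADX, and at CT20 in 3 and 5. All 6 libraries of CT16 and CT20 stood above all 12 of the other times in 15 of the 38 genes in sham (39.5%), against 0.785% of all tested genes. In ADX this held for 16 of the 38 (42.1%), against 0.607%. It held in both statuses for 14 of the 38 (36.8%), against 0.262% of all tested genes. These 14 were Hspb1, Hspa1b, Hspa8, Hsph1, Dnaja1, Hsp90aa1, Hsp90ab1, Stip1, Ahsa1, Chordc1, Fkbp4, St13, Hspd1 and Hspe1. The reverse, with CT16 and CT20 below all others, was seen in 0 of the 38 in sham (0.545% of all tested genes) and in 0 in ADX (0.678%).

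The summed level of the 38 genes was also highest at CT16 and CT20. In sham it was 5871 ± 124 CPM at CT04 (SD, n = 3, as in what follows), 5734 ± 118 CPM at CT08 and 5964 ± 91.7 CPM at CT12. It was 8186 ± 189 CPM at CT16, 7413 ± 359 CPM at CT20 and 5928 ± 85.5 CPM at CT24. In ADX it was 5904 ± 128, 5577 ± 197, 5747 ± 83.8, 7473 ± 451 (CT16), 7188 ± 475 (CT20) and 5870 ± 73.8 CPM in the same order of times. Hsp90ab1 made up between 21 and 25% of this sum. Per length, using the deposited gene length, Hsp90ab1 was also the most abundant at 1677 RPKM, ahead of Hspa8 at 483 RPKM and Hsp90aa1 at 394 RPKM, as means over the 36 libraries. Cct5 followed at 202 RPKM and Cryab at 184 RPKM. The lowest were Dnajb5 at 6.94 RPKM, Hspa1b at 2.90 RPKM and Hspa1a at 2.30 RPKM, so the gene with the largest daily change was among the least abundant.

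The comparison of ADX with sham asked whether the adrenal glands set the level or the rhythm of these genes. In the test of a difference in rhythm, 0 of the 38 passed, against 0.0% of all tested genes, where edgeR gave 805 genes and 1 of the 38, Dnaja2, an unadjusted p under 0.05. The smallest adjusted p among the 38 was 0.9997. The fitted size was smaller in ADX in 31 of the 38 (81.6%), against 56.8% of all tested genes. This count was 29 without the 3 libraries of highest muscle score, and between 26 and 33 when 1 library was left out. Without those 3 libraries, the sizes in sham and ADX were 1.66 and 1.37 for Hspb1, 1.28 and 1.28 for Hsph1, and 0.82 and 0.73 for Hsp90aa1. Among the 20 genes called in both statuses, the fitted peak was later in ADX in 15, by a median of 0.334 h over the 20. Among all 1268 tested genes called in both, it was later in 703, by a median of 0.146 h over the 1268.

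Over the mean of the 6 times, 0 of the 38 differed between ADX and sham in edgeR's test, against 0.718% of all tested genes, and 14 of the 38 had an unadjusted p under 0.05, beside 3522 of the 22556. The number among the 38 was 8 without the 3 libraries of highest muscle score, beside 3494 of all tested genes. The fold changes of the 38 were small and mostly negative, with 35 of the 38 lower in ADX, beside 11113 of the 22556 tested genes. Leaving out the 5 libraries with Gh over 50 CPM, which left 1 library at sham CT08, made this 33 of the 38. With all libraries, the median log2 fold change was -0.035 for the 38, beside 0.0011 over all tested genes. The lowest were Hspa1b at -0.18 ± 0.10 (SE), Hspb1 at -0.15 ± 0.06 and Hsph1 at -0.12 ± 0.05. Hspa2 was the highest at 0.08 ± 0.03. The smallest adjusted p of edgeR was that of Hspd1, 0.0997, for a log2 fold change of -0.08 ± 0.02. Without the 5 libraries with Gh over 50 CPM this fold change was -0.055. With all libraries, DESeq2 called Hspd1 alone among the 38 (adjusted p = 0.0369), beside 630 of all tested genes.

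At single times, 0 of the 38 passed edgeR's test at CT04, CT08, CT12, CT16 and CT24, each against 0.0% of all tested genes, and 0 passed at CT20, against 0.00443%. The number with an unadjusted p under 0.05 was 0 at CT04 (2097 of all 22556 tested genes), 0 at CT08 (966), 3 at CT12 (1220), 11 at CT16 (1794), 3 at CT20 (1690) and 2 at CT24 (1295). At CT16, the time of the highest levels, 30 of the 38 were lower in ADX, beside 10705 of all 22556 tested genes. The median log2 fold change of the 38 was -0.083, beside 0.0091 over all tested genes. A larger difference at CT16 in the folding genes of the endoplasmic reticulum is given below. Chordc1 had 77.8, 77.3 and 72.4 CPM in sham and 57.5, 55.3 and 63.8 CPM in ADX at this time, with no overlap. Chordc1 differed by a log2 value of -0.36 ± 0.07 (SE), and it missed the threshold in edgeR's test (adjusted p = 0.0943). Hspd1 had 209.9, 222 and 216 CPM in sham and 188, 158 and 193 CPM in ADX, a difference of -0.27 ± 0.06 on the log2 scale that did not pass (edgeR adjusted p = 0.249). St13 had 177, 175 and 170.0 CPM in sham and 155, 149.5 and 151 CPM in ADX, a difference of -0.20 ± 0.05 that did not pass either (edgeR adjusted p = 0.318). DESeq2 called these 3 genes at CT16 (adjusted p = 0.00331, 0.0168 and 0.0392) and none of the other 35, beside 20 of all tested genes.

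The 3 ADX libraries lay below the 3 sham libraries at CT16 in 12 of the 38 genes (31.6%), against 6.49% of all tested genes, and above them in 0 of the 38, against 7.1%. The 12 were Hspa4l, Hspa8, Hsph1, Hsp90aa1, Stip1, Chordc1, Ptges3, St13, Hspd1, Cct2, Cct8 and Tcp1. At the other times the count below was 2 at CT04 (8.46% of all tested genes), 1 at CT08 (3.93%), 4 at CT12 (5.34%), 1 at CT20 (4.13%) and 4 at CT24 (6.01%). The count above was 1 at CT04 (8.07%), 0 at CT08 (4.45%), 0 at CT12 (5.09%), 3 at CT20 (5.12%) and 3 at CT24 (6.03%). Hspa2 and Dnaja2 were among those above at CT20 and at CT24.

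Of the libraries with raised muscle markers, ADX CT16 replicate 2 was the lowest of its 3 libraries for 26 of the 30 genes with a shared rhythm and ADX CT20 replicate 3 for 23. ADX CT12 replicate 1 was the lowest for 6 and the highest for 13. Libraries without raised markers were also the lowest for many genes, among them ADX CT08 replicate 2 for 24 (muscle score -0.31), ADX CT04 replicate 1 for 20 (-0.56) and ADX CT12 replicate 3 for 20 (0.10). Without the 3 libraries of highest muscle score, 30 of the 38 were still lower in ADX at CT16. Of the 38, 8 then had an unadjusted p under 0.05 in edgeR's test, beside 1171 of all tested genes. The log2 fold change at CT16 was then -0.33 for Chordc1 (edgeR adjusted p = 0.491), -0.19 for Hspd1 (0.856), -0.19 for Hsph1 (0.974) and -0.19 for St13 (0.615). At CT20 the number lower in ADX went from 27 to 18 of the 38. The part of muscle RNA in the differences at CT16 was otherwise not tested.

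**Figure D5:**
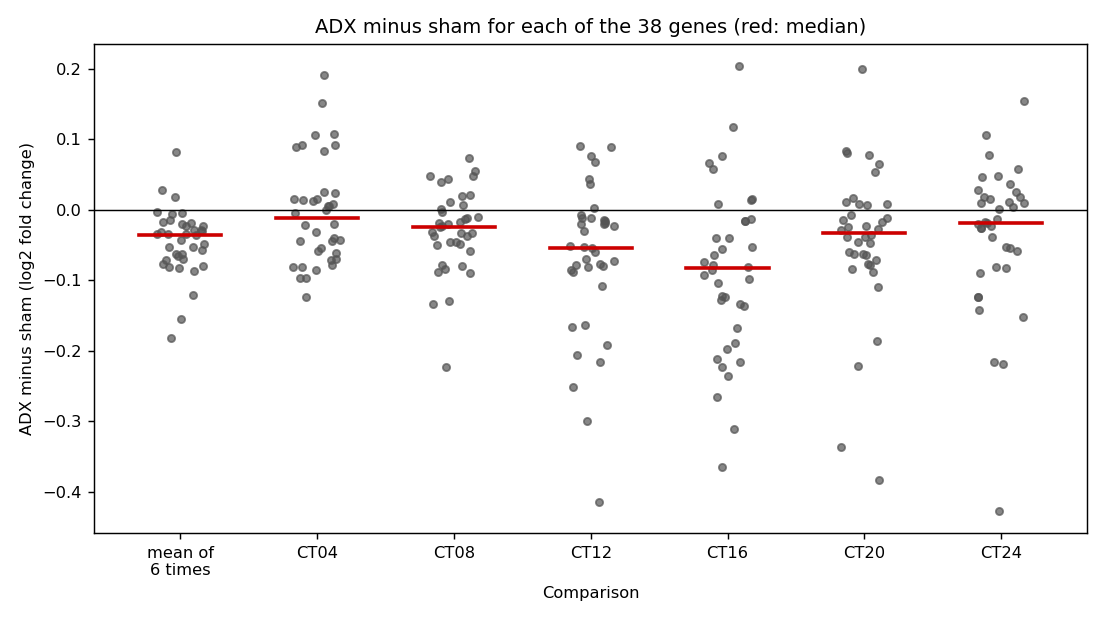
Points are the log2 fold changes of ADX against sham for the 38 genes, as the mean over all times and at each circadian time, and red bars are medians. The median is lowest at CT16, at -0.083, and 0 of the points passed edgeR's test.

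Other genes of protein folding were taken from lists by role. Of 47 further chaperone and co-chaperone genes tested, 14 were called in sham (29.8%, beside 16% of all tested genes), 6 in ADX (12.8%, beside 9.4%) and 22 with both statuses combined (46.8%, beside 32.5%). Of these 22, 11 peaked between 12 and 24 h, beside 3641 of all 7331 tested genes called with both statuses combined. Ahsa2, a relative of Ahsa1, had the largest size in sham among those called (0.81, peak at 18.5 h), followed by the J-domain gene Dnaja4 (0.46, peak at 19.07 h). Of the 16 folding genes of the endoplasmic reticulum, 16 were called in sham (100%) and 15 in ADX (93.8%), beside 65.8% and 52.6% of the 38. The fitted peak lay between 15 and 21 h in 15 of those called in sham and in 14 of those called in ADX. Among them was Hspa5, which encodes the HSP70 of that compartment (1.04 in sham, peak at 18.03 h). All 16 had a smaller fitted size in ADX. At CT16, with all libraries, all 16 were lower in ADX, and 15 had an unadjusted p under 0.05 in edgeR's test. Their median log2 fold change at CT16 was -0.252, beside -0.083 for the 38. Of 8 genes listed as further HSF1 targets, Hspa5 again among them, 4 were called in sham and 4 in ADX (50% in each). The shares of all tested genes were 16% and 9.4%. Serpinh1, the collagen chaperone HSP47, had 1.39 in sham (peak at 19.32 h), and Hmox1, heme oxygenase, peaked at 8.87 h. The cold-inducible RNA-binding genes Cirbp and Rbm3 were called in both statuses and peaked in sham at 6.80 h and 7.61 h, when most of the 38 were low. Of 8 immediate early genes, which respond to handling, Egr1 was called in sham, with a peak at 9.17 h, and Egr1 and Atf3 in ADX (beside 16% and 9.4% of all tested genes).

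Some of the 38 genes have near-identical copies. Shared 100-base stretches made up 44.0% of those of Hspb1 (with Hsp25-ps1), 38% for Hsp90aa1 (mostly Gm12346), 28.2% for Hspa8 (mostly Gm15459), 23.4% for Hspd1 (mostly Hspd1-ps3) and 17.3% for Ptges3 (mostly Ptges3-ps). Their single levels are uncertain where the counting could split reads. Genes that shared 0.0% of their stretches with other genes were found among the called and the uncalled. They included Hsph1, Hsp90ab1, Chordc1, Fkbp4, St13 and Hspa4l, called in both statuses, and Cryab, called in sham only. Hspb8, Dnajb5, Cdc37, Cct2 and Bag1, which passed in no test of rhythm, also shared 0.0%.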

How the data were processed

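RNA was sequenced in 36 cochlear libraries from strand-specific kits, per the labels' protocols. STAR 2.4.0i and the build mm10 are named in the submitters' processing notes, and the sources used here give no counting program, annotation or strand setting, so antisense and overlapping genes cannot be told apart with certainty. The deposited table holds raw counts for each Ensembl gene, which the authors had not normalized, and, per the file headers, a gene length, which was not whole for 20 of the 38 genes and looks like a mean over transcripts. RPKM were computed here from it. Column names gave times 1 h earlier than the labels for 30 columns. Labelled times were used, and 0 sample columns were left unused. GENCODE M21 gave symbols for 37607 of 39017 genes (96.4%).

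The 38 members, the lists, the rule for named genes and the tests were chosen with earlier results of these data known. Counts were fitted in R 4.3.3 with edgeR 4.0.16 (TMM, filterByExpr, quasi-likelihood F-tests) over all 36 libraries. The filter kept 22556 genes and left out 16461, which held 0.0779% of counts. One model had 12 group means (24 residual degrees of freedom), the other a level, a cosine and a sine of 24 h per status (30 residual degrees of freedom). Benjamini-Hochberg adjustment ran over all tested genes. CPM were computed here with TMM library sizes (factors from 0.981 to 1.03). The labels do not say whether the libraries are from separate animals, so the spread that p-values rest on may be technical. Within every group the replicates differed beyond sampling noise, with a chi-square of 5.52 to 22.9 per degree of freedom.

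Values by group (each library at CT16 and CT20, and each library or the range at the other times, with only a range for Hsf2) are given for the 2 members per role with the largest shared rhythm, for Hsf1, Hsf2 and the pair Hspa1a and Hspa1b. St13 at CT16, Cct2 and the non-overlap counts were picked after their values were seen. The tests of rhythm in sham, of the shared rhythm and of ADX against sham over all times were tried on simulated counts of 22556 genes. The test of a difference in rhythm and the tests at single times were not tried in this way, so their recovery is not known. The test of rhythm in sham recovered 28, 80, 92 and 100% of the genes given a peak-to-trough size of 0.3, 0.6, 1 and 2 on the log2 scale. The test of ADX against sham over all times recovered 80% of those changed by 0.3 and 100% of those changed by 0.6. Genes were simulated independently, without deviations shared within a library.

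Alternatives were DESeq2 1.42.0, its size factors, no filter, the replicate number as a block, fits on one status, a fit of the 6 times without a curve, and omission of each library in turn. Fits with the column names' times, and fits without the 3 libraries of highest muscle score or the 5 with Gh over 50 CPM, were added after seeing the data. Figures were drawn with matplotlib 3.10.9.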

Additional observations from a re-analysis of the deposited data

How the results depend on the processing

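The members called rhythmic numbered 23 to 27 in sham (25 as reported), 19 to 24 in ADX (20) and 28 to 30 with both statuses together (30) over the alternatives, and leaving out 1 library gave 25 to 27, 18 to 21 and 29 to 30. In the difference in rhythm and in ADX against sham, 0 members were called in every edgeR fit, and DESeq2 called 1 over the mean and 3 at CT16. Replicate numbers did not pair the libraries: deviations correlated by a mean of -0.0125 between libraries of the same number (198 pairs, from -0.423 to 0.31) and by 0.00626 between others, and 10 of 36 libraries correlated best with their own number. With the replicate block 25, 20 and 29 members were called (3415, 1996 and 7110 of all genes), and 1 gene at CT04.

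Counts over all genes moved as follows. Without the filter they were 1411 for rhythm in ADX, 1 at CT04, 2 at CT16 and 6 at CT20. DESeq2 gave 1 for the difference in rhythm, 630 over the mean, 79 at CT04, 9 at CT12, 20 at CT16 and 175 at CT20. Without the 3 libraries of highest muscle score they were 9 at CT04, 2 at CT12 and 0 at CT20. Without the 5 libraries with Gh over 50 CPM, which leaves only replicate 1 at sham CT08, they were 11 over the mean, 2 at CT04 and 1 at CT08. Leaving out 1 library gave 2711 to 4131 genes in sham, 1334 to 2430 in ADX, 6654 to 7652 with both together, 0 to 1 for the difference, 21 to 302 over the mean, 0 to 10 at CT04, 0 to 0 at CT08, 0 to 2 at CT12, 0 to 24 at CT16, 0 to 141 at CT20 and 0 to 1 at CT24. The cause of these shifts was not tested. With 3 libraries per group, rhythms near a peak-to-trough value of 0.3 are often missed, so an uncalled member is not shown to be flat.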

Other observations

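Some chaperone genes outside the 38 members peaked at other times than the 15 to 21 h of most called members. Of all 7331 tested genes with a rhythm shared by both statuses, 3690 peaked between 0 and 12 h. Among the 47 further chaperone genes, 11 of the 22 with such a rhythm did. They included the prefoldin subunits Pfdn5 (peak at 8.23 h, fitted peak-to-trough value of 0.16 on the log2 scale), Pfdn2 (6.52 h, 0.10) and Pfdn1 (3.09 h, 0.17), which deliver actin and tubulin to the cytosolic chaperonin. Pfdn1 and Pfdn2 passed in neither status alone, and the other subunits Pfdn4, Pfdn6 and Vbp1 were not called (edgeR adjusted p of the shared rhythm = 0.797, 0.518 and 0.239). The small heat shock protein gene Hspb6 (8.36 h, 0.30) and the factor gene Hsf4 (8.60 h, 0.23) also peaked early. Both were called in sham and not in ADX (edgeR adjusted p in ADX = 0.576 and 0.325). The chaperonin subunits outside the 38 had later peaks, at 18.1 h for Cct4 (0.16), 17.6 h for Cct7 (0.12) and 17.5 h for Cct6a (0.14). Cct4 and Cct7 were called in sham and not in ADX, and Cct6a passed in neither status alone. The genes called here were named after their values were seen, and their edgeR adjusted p of the shared rhythm lay between 0.000628 for Pfdn5 and 0.0360 for Pfdn2.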
